A study of Mus musculus with 17 samples.

Results

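The Hox genes of these cell lines were taken as every gene whose symbol is Hox followed by a cluster letter from a to d and a paralog number. There were 39 of them among 55450 genes, and they lie in 4 clusters of the mouse genome (mm10). The *Hoxa* cluster holds 11 genes on chromosome 6, and the *Hoxb* cluster holds 10 genes on chromosome 11 from 96194316 to 96368256. The *Hoxc* cluster holds 9 genes on chromosome 15 from 102921103 to 103036852, and the *Hoxd* cluster holds 9 genes on chromosome 2 from 74668310 to 74765142.

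RNA was measured in cultured cancer cell lines from 10 female FVB/NJ mice of 10 to 12 weeks that carry the MMTV-PyMT transgene, in which a mammary-active viral promoter drives polyomavirus middle T antigen and mammary tumors form. Bulk RNA-seq covered 14 libraries in 7 groups of 2: cells of the primary tumor in the mammary fat pad (MFP), and CD44low and CD44high cells of 3 metastatic sites, which were lung, bone marrow (BM) and lymph node (LN). Within a group each library was a different clonal isolate from a different mouse, and all were grown in culture for about a month and sorted for high EpCAM on the cell surface, so MFP and every metastatic group share the transgene, the culture and the sort. With 10 mice and 14 bulk libraries, some mice must have given more than 1 library. Which libraries share a mouse is not given, so the tests below treat all 14 as independent. No CD44 state is given for MFP. There were also 3 single-cell libraries, 1 each of lung CD44low, lung CD44high and LN CD44high cells.

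Hox genes encode transcription factors that bind DNA through a homeodomain, a short domain coded by a homeobox. Within each cluster the genes are transcribed from the same strand and are numbered from 3′ to 5′, genes with the same number in different clusters are paralogs, and in the embryo low numbers are used in anterior and high numbers in posterior parts of the body. Adult cells, fibroblasts in particular, often keep a Hox pattern typical of their place of origin. Hox proteins bind DNA together with cofactors of the PBX, MEIS and PKNOX families, Polycomb proteins hold the clusters silent, and retinoic acid switches on genes at the 3′ ends.

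The values below rest on telling apart genes of like sequence, so the homeoboxes, each of 180 bases, were read from the mm10 genome and compared. Over the 136 pairs of Hox genes tested below, the homeoboxes differed at 11 to 79 bases, and the longest stretch without a difference was 52 bases. The closest pair was *Hoxa3* and *Hoxb3*, at 93.9% identity.

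The promoters of 3 members are shown as the bases just before the annotated start, of which *Hoxb4* was called higher in lung CD44low cells below, *Hoxc4* had at least 1 TPM there without being called, and *Hoxa10* was called in LN and BM cells. The first 2 were picked because they hold the motif marked here, so they do not stand for the other genes. The letters are those of RefSeq on GRCm38.p6. Capitals mark AGGTCA on either strand, the core half-site of retinoic acid receptors and of several other nuclear receptors.
*Hoxb4* (chr11:96318017-96318266, plus strand): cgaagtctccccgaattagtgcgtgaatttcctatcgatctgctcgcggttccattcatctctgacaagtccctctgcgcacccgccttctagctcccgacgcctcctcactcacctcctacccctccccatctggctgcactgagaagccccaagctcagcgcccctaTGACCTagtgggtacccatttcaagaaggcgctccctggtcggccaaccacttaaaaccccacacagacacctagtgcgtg
*Hoxc4* (chr15:103034145-103034394, plus strand): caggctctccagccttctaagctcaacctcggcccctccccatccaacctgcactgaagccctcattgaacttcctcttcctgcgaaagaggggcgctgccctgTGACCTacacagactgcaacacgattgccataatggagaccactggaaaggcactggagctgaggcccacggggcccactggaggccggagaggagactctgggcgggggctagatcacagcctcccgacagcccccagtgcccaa
*Hoxa10* (chr6:52240855-52241104, minus strand): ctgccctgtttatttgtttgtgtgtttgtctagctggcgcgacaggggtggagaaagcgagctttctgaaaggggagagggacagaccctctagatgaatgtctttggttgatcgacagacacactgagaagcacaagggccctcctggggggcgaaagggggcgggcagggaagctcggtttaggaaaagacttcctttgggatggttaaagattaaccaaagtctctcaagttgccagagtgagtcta
RefSeq gave a promoter for 22 of the 39 Hox genes, 24 promoters in all, each from 250 bases before to 50 bases after the start. AGGTCA was found on either strand in 7 of the 24, and in 16.3% of all 32851 promoters in the table. It was in 2 (*Hoxa5* and *Hoxb4*) of the 6 promoters given for genes called higher in lung CD44low cells, and 4 of the 7 matches were in *Hoxd* genes, which were listed at 0 in every bulk library. TGATNNAT, a core that Hox and PBX proteins bind as a pair, was found in 4 of the 24 and in 8.85% of all promoters. No Hox promoter held both motifs, and these matches only describe the letters. The Hox promoters held a median of 14.5 CpG dinucleotides, against 7 for all promoters, with a range of 4 to 45.

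Levels are given in TPM, transcript copies scaled to a fixed library total, which is a per-length scale on which genes can be compared, with replicate 1 first. Of the 39 Hox genes, 17 reached 1 TPM in 2 or more libraries and were tested, among them *Hoxa2* to *Hoxa7* and *Hoxa10*, *Hoxb2* to *Hoxb8*, *Hoxc4* and *Hoxc9*. Another 13 were listed at 0 in all 14 libraries, and these were the 9 *Hoxd* genes with *Hoxa11*, *Hoxb1*, *Hoxc11* and *Hoxc12*. The other 9 (*Hoxa9*, *Hoxa13*, *Hoxb9*, *Hoxb13*, *Hoxc5*, *Hoxc6*, *Hoxc8*, *Hoxc10* and *Hoxc13*) stayed below 1 TPM in every library, with *Hoxa9* the highest at 0.93 TPM in 1 LN CD44low library. Of the 17 genes tested, 11 reached 1 TPM in lung CD44low libraries alone. Those 11 entered the tests through the group in which they are high, so neither the number of tested genes that differ nor their adjusted p is support by itself.

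Before the groups are compared, the label of the lung cells has to be set beside their markers. *Epcam*, the gene of the sorted surface protein, was listed at 0 in both lung CD44low libraries and at 0.23 and 0.86 TPM in the lung CD44high libraries, against 315 to 941 TPM in the other 10 libraries. *Cd44*, the gene of the surface protein that names the groups, had 146.7 and 82.7 TPM in LN CD44low and 49.0 and 52.3 TPM in LN CD44high libraries, so its RNA was lower in those labelled CD44high. It overlapped between the CD44 states in BM (43.8 and 74.9 TPM in CD44low, 50.5 and 49.0 TPM in CD44high) and in lung (12.2 and 21.6 TPM in CD44low, 21.95 and 12.07 TPM in CD44high), so *Cd44* RNA does not check the CD44 labels. Of 15 epithelial markers, 2 had at least 1 TPM in both lung CD44low libraries, 2 in both lung CD44high libraries, 12 in each LN and BM group and 13 in MFP. Their summed level was 3.8 to 4.0 TPM in lung CD44low, 18.2 to 88.3 TPM in lung CD44high, 2290 to 4929 TPM in LN and BM and 7940 to 8976 TPM in MFP cells. Of 14 fibroblast and mesenchymal markers, 13 had at least 1 TPM in both lung CD44low libraries, with *Fap* listed at 0. They summed to between 4867 and 5327 TPM there and to between 126 and 246 TPM in lung CD44high cells. In LN and BM they summed to between 23.0 and 69.4 TPM, above the 5.2 to 6.7 TPM of MFP. Of 6 markers of lung mesenchyme, 5 had at least 1 TPM in both lung CD44low libraries, with *Wnt2* at 0, and they summed to between 463 and 546 TPM, against at most 4.6 TPM in any other library. The 6 lung epithelium markers summed to at most 0.7 TPM, the 5 endothelial markers to at most 0.3 TPM, and the 7 leukocyte markers to between 1.3 and 23.2 TPM in every library. The 5 cycling markers summed to 35.1 to 35.3 TPM in lung CD44low, 3.2 to 47.2 TPM in lung CD44high and 458 to 4719 TPM in the other 10 libraries, and the 6 mammary markers to 25.7 to 26.5 TPM in lung CD44low, 217 to 322 TPM in lung CD44high, 38.8 to 43.4 TPM in MFP and 1.8 to 5.0 TPM in LN and BM. Of these lists, those of fibroblast and mesenchymal cells and of lung mesenchyme stood far above all other groups in lung CD44low cells, as did the Hox levels below, and their part in those results was not tested. Epithelial and cycling markers were low in the bulk libraries of lung CD44high cells too. In bulk RNA, fewer cells of a type and less RNA per cell cannot be told apart.

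Lung CD44low cells had the most Hox RNA. Summed over the 39 genes, they held 206.87 and 204.37 TPM, whereas MFP held 2.49 and 2.03 TPM and lung CD44high cells 3.04 and 4.02 TPM. The 8 libraries of LN and BM fell between 11.2 and 21.9 TPM. In lung CD44low cells, 134.64 and 131.0 TPM came from *Hoxb* genes, 71.1 and 72.2 TPM from *Hoxa* genes, and 1.12 and 1.16 TPM from *Hoxc* genes. Both lung CD44low libraries had at least 1 TPM for the same 14 Hox genes. By the same count there were 3 genes in LN CD44low, 4 in LN CD44high, 3 in BM CD44low, 3 in BM CD44high and 1 each in MFP and lung CD44high cells.

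**Figure D1:**
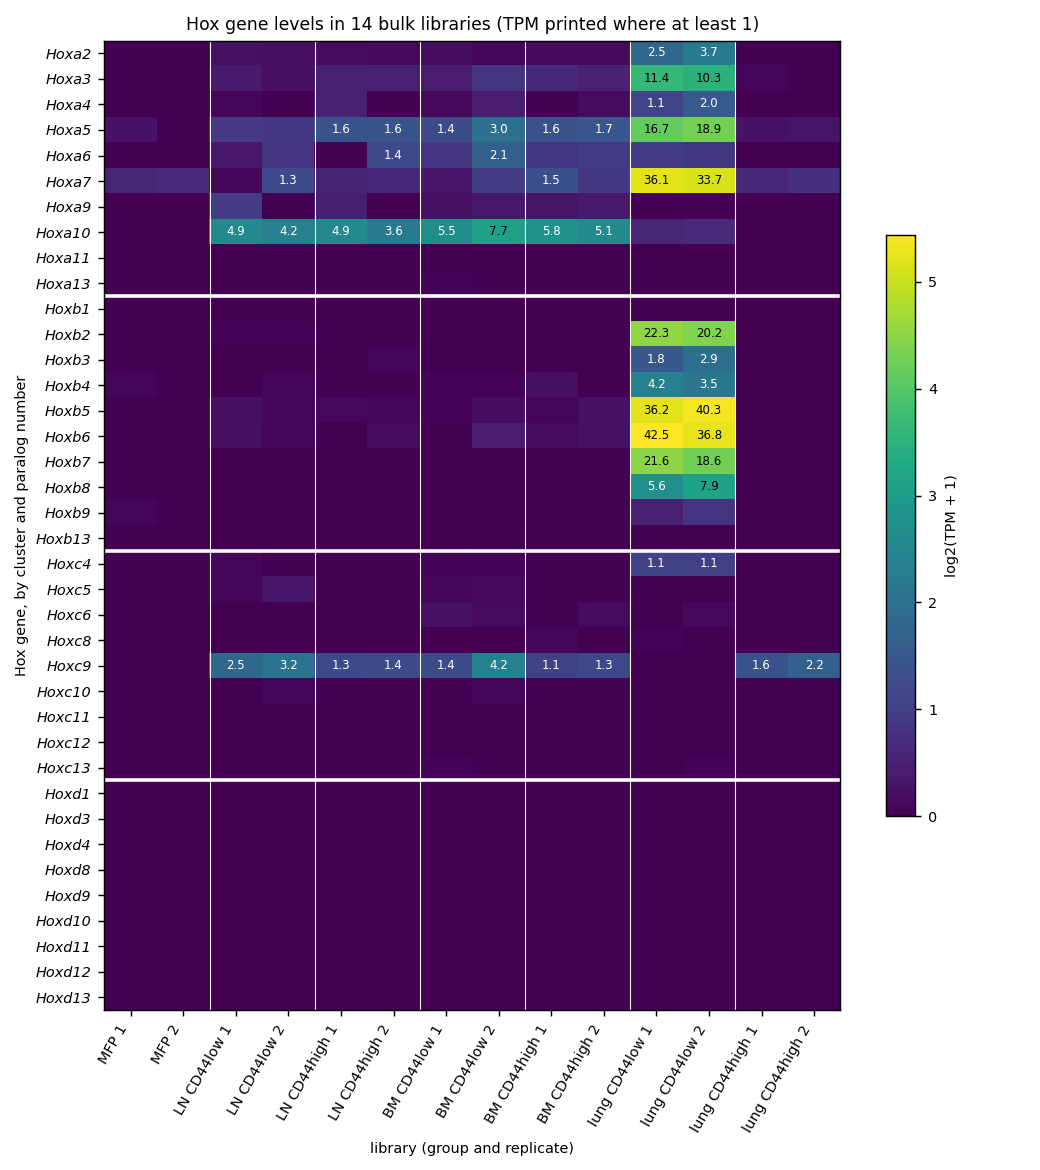
Heat map of log2(TPM + 1) for Hox genes (rows, by cluster and paralog number) in the 14 bulk libraries (columns, 2 per group), with the TPM printed in cells of at least 1 TPM. Lung CD44low libraries fill paralog numbers 2 to 5 and 7 of *Hoxa* and 2 to 8 of *Hoxb*, LN and BM libraries show *Hoxa10* and *Hoxc9*, and the 9 *Hoxd* genes are at 0 throughout.

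In lung CD44low cells the genes with at least 1 TPM included *Hoxa2* to *Hoxa5* and *Hoxa7* in the *Hoxa* cluster and *Hoxb2* to *Hoxb8* in the *Hoxb* cluster. Among genes with higher numbers, *Hoxa10* lay at 0.49 and 0.56 TPM there and *Hoxb9* at 0.39 and 0.80 TPM. Summed by paralog number, lung CD44low cells held the most for numbers 5 (52.9 and 59.2 TPM), 7 (57.7 and 52.3 TPM) and 6 (43.4 and 37.7 TPM), and less for numbers 2 (24.8 and 23.9 TPM), 3 (13.16 and 13.23 TPM), 8 (5.63 and 7.90 TPM) and 4 (6.46 and 6.49 TPM). The sums for numbers 5 and 7 overlapped between the libraries, as did those for 8 and 4. In LN and BM cells the highest number with at least 1 TPM was 10.

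**Figure D2:**
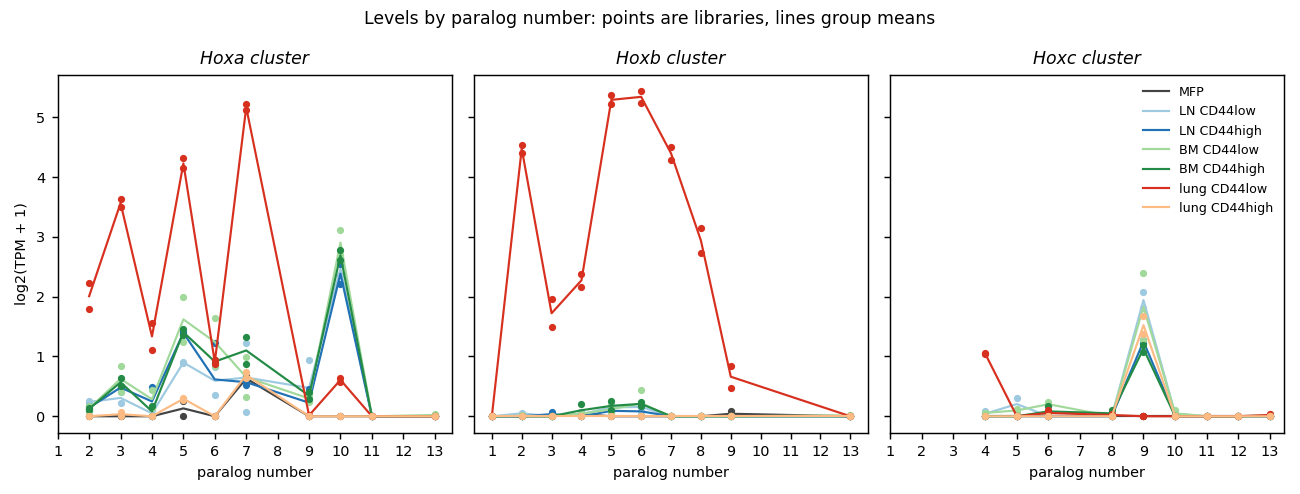
Level, as log2(TPM + 1), against paralog number in the *Hoxa*, *Hoxb* and *Hoxc* clusters, with a point for each library and a line through the mean of each group. The lung CD44low line stands above the others from numbers 2 to 5 and at 7 of *Hoxa* and from 2 to 8 of *Hoxb*, whereas at *Hoxa10* and *Hoxc9* the LN and BM lines are higher than lung CD44low.

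To ask how the metastatic groups differ from the primary tumor, each was compared to MFP with limma on log2(TPM + 1), fitted over 15348 genes. A gene was called when it moved by more than 2 on the log2 scale with a Benjamini-Hochberg adjusted p under 0.05. In lung CD44low cells 10 of the 39 Hox genes rose, out of the 17 that were tested, and none of the 17 fell. Of all genes tested, 11.2% were called higher and 7.62% lower. The 10 were *Hoxa2*, *Hoxa3*, *Hoxa5*, *Hoxa7*, *Hoxb2*, *Hoxb4*, *Hoxb5*, *Hoxb6*, *Hoxb7* and *Hoxb8*, with adjusted p from 8.06e-09 to 6.54e-06. The spread of a gene is estimated over all 7 groups together. Where most groups are listed at 0, those zeros lower the estimate. The adjusted p of such a gene does not measure the spread between the 2 lung CD44low libraries.

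Among the *Hoxb* genes, *Hoxb6* had 42.5 and 36.8 TPM in lung CD44low cells and was listed at 0 in both MFP and both lung CD44high libraries. It had 0 to 0.35 TPM in LN and BM, so lung CD44low cells did not overlap with any other library (adjusted p against MFP 2.04e-08, limma). *Hoxb5* had 36.2 and 40.3 TPM, was listed at 0 in MFP and lung CD44high cells, and reached 0.19 TPM at most in LN and BM (adjusted p 8.06e-09, limma). The lung CD44low values of *Hoxb5* and *Hoxb6* overlapped, so neither ranks above the other. *Hoxb2* had 22.3 and 20.2 TPM in lung CD44low cells and at most 0.04 TPM in any other library (adjusted p 1.06e-08, limma), and *Hoxb7* had 21.6 and 18.6 TPM and was listed at 0 in each of the other 12 (adjusted p 1.29e-08, limma). The values of *Hoxb2* and *Hoxb7* overlapped too. *Hoxb8*, long linked to myeloid leukemia in mice, had 5.6 and 7.9 TPM and was listed at 0 in the other 12 libraries (adjusted p 3.3e-07, limma). *Hoxb4*, known for the expansion of blood stem cells, had 4.22 and 3.48 TPM, against 0.05 and 0 TPM in MFP (log2 difference 2.24 ± 0.14 (SE), adjusted p 9.96e-07, limma). *Hoxb3* had 1.80 and 2.89 TPM and was listed at 0 in MFP (adjusted p 1.64e-05, limma), but its difference was within the limit of 2.

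Among the *Hoxa* genes, *Hoxa7* had 36.1 and 33.7 TPM in lung CD44low cells, 0.50 and 0.60 TPM in MFP, 0.05 to 1.5 TPM in LN and BM, and 0.55 and 0.68 TPM in lung CD44high cells. It was thus detected in all 14 libraries and was 4.53 ± 0.37 (SE) higher in lung CD44low cells than in MFP on the log2(TPM + 1) scale (adjusted p 6.54e-06, limma). *Hoxa5*, which has a role in lung and mammary gland development, had 16.7 and 18.9 TPM in lung CD44low cells and 0.20 and 0 TPM in MFP. Its log2(TPM + 1) difference, 4.10 ± 0.27 (SE, adjusted p 1.14e-06, limma), depends on the added 1. *Hoxa3*, known for its part in thymus and parathyroid formation, had 11.4 and 10.3 TPM and was listed at 0 in MFP (adjusted p 2.7e-07, limma). *Hoxa2*, which patterns the second branchial arch, had 2.46 and 3.68 TPM and was listed at 0 in MFP (adjusted p 5.53e-06, limma). Its call sits at the limit: it is lost without the second lung CD44low library, where the log2(TPM + 1) difference, set by the added 1 and no fold change, is 1.79. *Hoxa4* had 1.15 and 1.96 TPM and was listed at 0 in MFP (adjusted p 0.00063, limma), a difference within the limit of 2.

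Some tested members did not separate lung CD44low cells from MFP in the same way. *Hoxa6* had 0.92 and 0.83 TPM in lung CD44low cells (adjusted p against MFP 0.0762, limma), between *Hoxa5* and *Hoxa7*, whose levels were far higher. *Hoxc4*, the *Hoxc* gene with at least 1 TPM in this group, had 1.09 and 1.05 TPM and was listed at 0 in MFP (adjusted p 5.16e-05, limma, within the limit of 2).

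**Figure D3:**
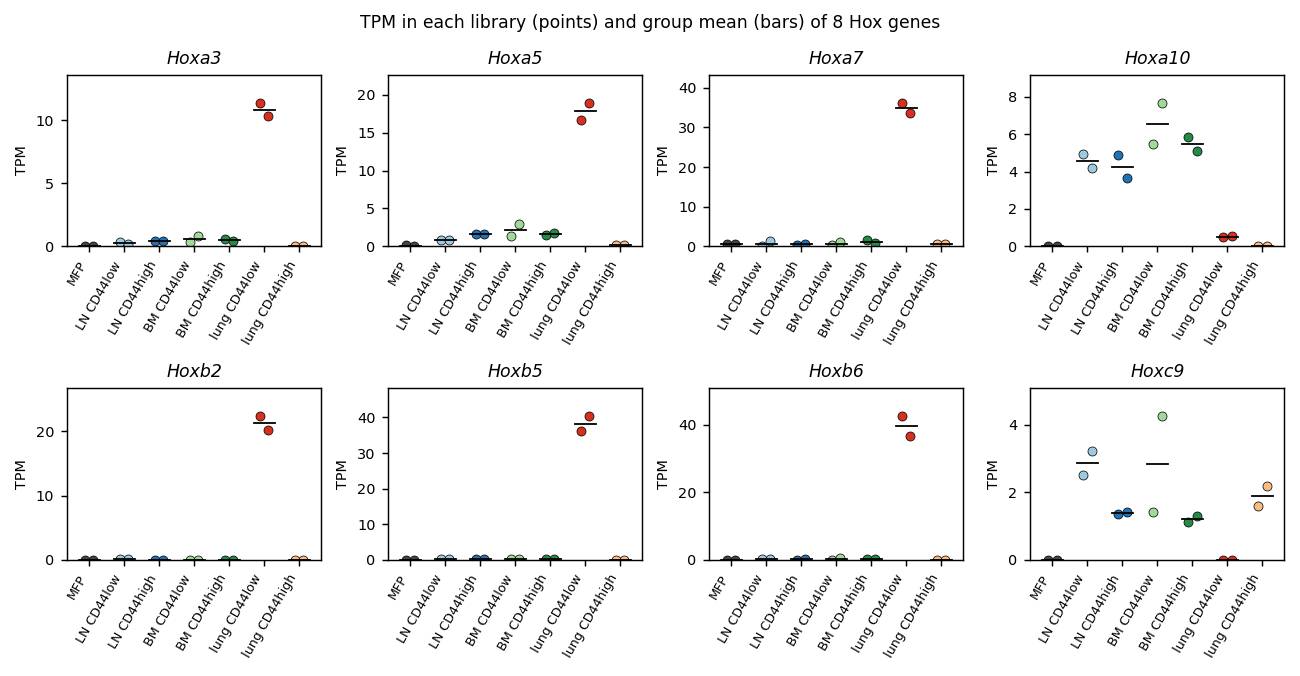
TPM of 8 Hox genes in each library (points) with the mean of the 2 libraries (bars), on a linear axis from 0 for each gene. *Hoxa3*, *Hoxa5*, *Hoxa7*, *Hoxb2*, *Hoxb5* and *Hoxb6* are high in lung CD44low libraries alone, *Hoxa10* in the 8 LN and BM libraries, and *Hoxc9* in LN, BM and lung CD44high libraries.

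In LN and BM cells a single Hox gene was called against MFP in each of the 4 groups, and it was *Hoxa10* each time. *Hoxa10*, an *Abd-B*-type gene needed for the uterus, had 4.93 and 4.17 TPM in LN CD44low, 4.87 and 3.65 TPM in LN CD44high, 5.48 and 7.66 TPM in BM CD44low and 5.84 and 5.12 TPM in BM CD44high cells. It was listed at 0 in both MFP and both lung CD44high libraries, so the LN and BM libraries did not overlap with any others. Adjusted p (limma) was 9.2e-05 for LN CD44low, 9.57e-05 for LN CD44high, 2.75e-05 for BM CD44low and 3.9e-05 for BM CD44high cells. These 4 comparisons share the MFP libraries. Cell type markers moved in them too. In the same order, 7, 4, 4 and 5 of 13 tested epithelial markers were called lower and 0 higher. Of 13 tested fibroblast and mesenchymal markers, 3, 4, 5 and 4 were called higher and 0 lower. Their part in the *Hoxa10* calls was not tested. Of all genes tested, 2.07% were called higher and 2.72% lower in LN CD44low, 2.44% and 3.68% in LN CD44high, 3.99% and 3.17% in BM CD44low, and 3.64% and 4.03% in BM CD44high cells, and no Hox gene was called lower. Under median-ratio scaling the balance over all genes turned from 375 higher and 565 lower to 511 and 361 in LN CD44high and from 558 and 619 to 731 and 395 in BM CD44high cells. The count of 1 depends on the added 1: with 0.1 added in its place, 3, 4, 5 and 5 Hox genes were called in the same order.

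*Hoxc9* was the other Hox gene with at least 1 TPM in all 8 LN and BM libraries. It had 2.51 and 3.22 TPM in LN CD44low, 1.34 and 1.42 TPM in LN CD44high, 1.42 and 4.24 TPM in BM CD44low and 1.10 and 1.28 TPM in BM CD44high cells, and was listed at 0 in MFP and in lung CD44low cells. Its adjusted p against MFP (limma) was 0.00265, 0.0185, 0.00269 and 0.0258 in the same order, with each difference within the limit of 2. *Hoxa5* had 0.85 to 2.99 TPM over the 8 libraries, and its adjusted p against MFP passed 0.05 in LN CD44high (0.00738), BM CD44low (0.00305) and BM CD44high cells (0.00635, limma). *Hoxa6* ranged from 0 to 2.13 TPM, with an adjusted p against MFP of 0.0393 in BM CD44low cells (limma). *Hoxa3*, at 0.16 to 0.79 TPM, had an adjusted p of 0.0382 in BM CD44low and 0.0492 in BM CD44high cells (limma). All these differences were within the limit of 2. The second BM CD44low library had the highest value of *Hoxa5*, *Hoxa6*, *Hoxa10* and *Hoxc9* among the 8, and a Hox sum of 21.86 TPM against 11.23 TPM in its replicate. It also had the most genes with at least 1 TPM of all 14 libraries (13052, against 11508 to 12351 in the others).

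Between BM and LN cells, with 4 libraries of each organ, limma called 0 Hox genes, 0 had an unadjusted p under 0.05, and 0.345% of all genes were called higher and 0.0521% lower in BM. Between CD44 states limma called 0 of the 17 tested Hox genes in LN, where 0.117% of all genes were higher and 0.0912% lower in CD44high cells, and 0 in BM, where 0.0521% were called in each direction. No unadjusted p of a Hox gene was under 0.05 in either organ. The largest CD44 differences were those of *Hoxc9*, at -0.69 ± 0.32 in LN and -0.70 ± 0.32 in BM (SE, log2(TPM + 1), adjusted p 0.511 and 0.624, limma). Its unadjusted p lay just above 0.05 in both organs, at 0.055 in LN and 0.0524 in BM (limma). The BM value rests on the second BM CD44low library: without it, it is -0.14, and the difference farthest from 0 in BM is then that of *Hoxa7*, at 0.78. Without the first BM CD44low library it is -1.26 (unadjusted p 0.000427, adjusted p 0.00726, limma), the unadjusted p of *Hoxa5* is 0.0322, no Hox gene is called, and the calls over all genes in BM go from 8 higher and 8 lower to 52 and 923. The absence of a Hox gene with an unadjusted p under 0.05 in BM thus rests on that library.

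Lung CD44high cells did not share the Hox genes of lung CD44low cells. Against MFP, limma called 0 Hox genes in either direction (5.42% of all genes were called higher and 8.03% lower), and 1 Hox gene had an unadjusted p under 0.05. That gene was *Hoxc9*, with 1.59 and 2.19 TPM against a listing of 0 in MFP (adjusted p 0.00433, within the limit of 2). Of the 10 genes high in lung CD44low cells, 7 were listed at 0 in both lung CD44high libraries. The other 3 were *Hoxa3* at 0.05 and 0 TPM, *Hoxa5* at 0.21 and 0.24 TPM and *Hoxa7* at 0.55 and 0.68 TPM.

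To ask what separates the CD44 states within an organ, CD44high cells were compared to CD44low cells. In lung the same 10 Hox genes that were higher than MFP in lung CD44low cells were lower in CD44high than in CD44low cells, and none was higher. Of all genes tested, 8.8% were called lower and 2.49% higher. The 2 comparisons share the lung CD44low libraries, so this is not separate support. For genes above 0 in all 4 lung libraries, the log2(TPM + 1) difference was -4.48 ± 0.37 for *Hoxa7* (adjusted p 1.04e-05) and -3.94 ± 0.27 for *Hoxa5* (SE, adjusted p 2.27e-06, limma). *Hoxa3*, at 0.05 and 0 TPM in lung CD44high cells, differed by -3.53 ± 0.19 (SE, adjusted p 4.24e-07, limma), a value set by the added 1. *Hoxc9* went the other way, from a listing of 0 in CD44low to 1.59 and 2.19 TPM in CD44high cells (adjusted p 0.00543, limma, within the limit of 2).

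The CD44 difference in lung was also tested directly against the mean of those in LN and BM. It was more negative in lung for 9 Hox genes (*Hoxa3*, *Hoxa5*, *Hoxa7*, *Hoxb2*, *Hoxb4*, *Hoxb5*, *Hoxb6*, *Hoxb7* and *Hoxb8*) and more positive for 1, *Hoxc9*, while 6.57% of all genes were called lower and 3.02% higher by this contrast. *Hoxc9* differed by 2.22 ± 0.39 (SE, adjusted p 0.00266, limma), a value that depends on the added 1 and is no fold change, since both lung CD44low libraries are listed at 0. This call is lost without the second BM CD44low library, where the value is 1.94.

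**Figure D4:**
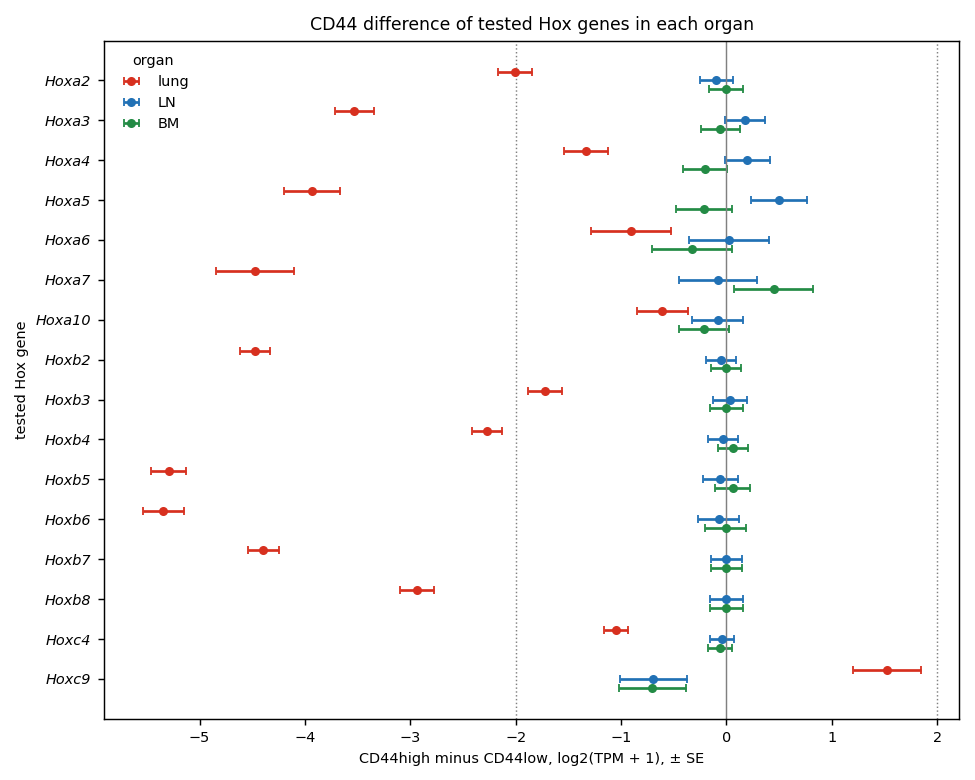
CD44high minus CD44low difference in log2(TPM + 1), with its standard error from limma, for tested Hox genes in lung, LN and BM, with dotted lines at the limit of 2 in each direction. In lung 10 genes lie below -2 and *Hoxc9* lies at 1.52, while all LN and BM values lie within 1 of 0; where the CD44high or, for *Hoxc9*, the CD44low libraries of lung are listed at 0, the value depends on the added 1 and is no fold change.

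Set against the mean of the 4 LN and BM groups, lung cells as a whole had 5 Hox genes called higher (*Hoxa7*, *Hoxb2*, *Hoxb5*, *Hoxb6* and *Hoxb7*) and 1 called lower, *Hoxa10*, with 7.13% of all genes called higher and 5.54% lower (1095 and 851 genes, which turned to 864 and 1030 under median-ratio scaling). The lung minus LN and BM difference of *Hoxa10* was -2.31 ± 0.15 on the log2 scale (SE, adjusted p 7.87e-07, limma), a value that depends on the added 1 and is no fold change, since lung CD44high cells are listed at 0. The 5 higher calls rest on the lung CD44low libraries. When lung CD44high cells alone stood for lung, *Hoxa10* kept its call. The differences of the 5 were then -0.05 for *Hoxa7*, -0.01 for *Hoxb2*, -0.13 for *Hoxb5*, -0.165 for *Hoxb6* and 0 for *Hoxb7*.

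Transcripts next to the Hox genes were read in the same libraries. Of 43 non-coding genes inside the clusters, 9 were tested, and 2 were called higher than MFP in lung CD44low cells (11.2% over all genes). *Hoxb5os*, antisense to *Hoxb5*, had 28.4 and 19.3 TPM in lung CD44low cells, was listed at 0 in MFP and lung CD44high cells and reached at most 0.31 TPM elsewhere (adjusted p against MFP 9.5e-08, limma). *Hotairm1*, in the *Hoxa* cluster, had 115 and 69.9 TPM in lung CD44low cells and 16.4 to 34.2 TPM in the other 12 libraries (log2 difference from MFP 2.16 ± 0.33 (SE), adjusted p 0.000566, limma), and *Hoxb5os* was also lower in CD44high than in CD44low lung cells (adjusted p 1.33e-07, limma). The other 7 tested were *Gm27867*, *Gm27868*, *Gm27477*, *Hoxaas2*, *Gm15050*, *Hoxaas3* and *Gm11539*. The library kit does not mark strand, so reads of a gene and of its antisense partner cannot be told apart where exons overlap. By annotation, 52.9% of the exon bases of *Hoxb3*, 27.3% of *Hoxb2*, 27.1% of *Hoxa3*, 20.4% of *Hoxa7*, 16.0% of *Hoxa4*, 15.0% of *Hoxa2* and 3.6% of *Hoxb5* overlap with other genes, so the values of *Hoxb3* in particular are uncertain. *Hoxa5*, *Hoxa6*, *Hoxa10*, *Hoxb4*, *Hoxb6*, *Hoxb7*, *Hoxb8*, *Hoxc4* and *Hoxc9* have no such overlap.

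Of 24 genes that flank the clusters, 19 were tested. Against MFP, 1 was higher in lung CD44low cells, and the median log2 difference of the 19 was -0.14, against 11.2% higher and a median of 0 over all genes. That gene was *Calcoco1*, near the *Hoxc* cluster, at 151.8 and 189.74 TPM in lung CD44low, 132 and 109 TPM in lung CD44high and 6.47 to 39.54 TPM in the other libraries (log2 difference in lung CD44low cells 3.39 ± 0.58 (SE), adjusted p 0.00107, limma). *Skap2*, which flanks the *Hoxa* cluster, had 81.3 and 91.5 TPM in lung CD44low and 19.9 and 29.4 TPM in lung CD44high cells, and its CD44 difference in lung was below that in LN and BM (-2.52 ± 0.46 (SE), adjusted p 0.00332, limma). *Hnrnpa1*, which flanks *Hoxc*, was higher in lung CD44high (428 and 320 TPM) than in lung CD44low cells (84.8 and 86.4 TPM, adjusted p 0.00193, limma). *Hnrnpa3*, which flanks *Hoxd*, was lower in lung CD44high cells (15.1 and 11.6 TPM) than in MFP (99.5 and 72.8 TPM, adjusted p 0.00187, limma).

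All 9 genes for Hox cofactors were tested. In lung CD44low cells 1, *Pknox2*, was called higher than MFP and none lower, with a median log2 difference of 0.24, against 11.2% higher and a median of 0 over all genes. *Meis1* had 10.0 and 15.1 TPM in lung CD44low cells, 1.96 and 1.30 TPM in lung CD44high cells and 1.58 and 3.66 TPM in MFP, and was listed at 0 in all 8 LN and BM libraries. Its CD44high minus CD44low difference in lung was -2.35 ± 0.29 on the log2 scale (SE, adjusted p 0.00021, limma). *Pknox2* had 6.71 and 4.68 TPM in lung CD44low and 4.84 and 2.83 TPM in lung CD44high cells, and was listed at 0 in MFP (adjusted p 0.0001 and 0.000514, limma). *Pbx4* was listed at 0 in lung CD44high cells, against 4.09 and 5.03 TPM in MFP (adjusted p 0.000377, limma).

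Of 20 Polycomb and trithorax genes, all tested, 3 were higher and 1 was lower in lung CD44low cells than in MFP, with a median log2 difference of 0.24, against 11.2% higher, 7.62% lower and a median of 0 over all genes. The same 3, *Ring1* and *Cbx7* among them, were lower in lung CD44high than in lung CD44low cells (8.8% over all genes), in a comparison that shares the lung CD44low libraries with the first. *Ring1* had 16.0 and 16.0 TPM in lung CD44low cells, 1.62 and 1.41 TPM in lung CD44high cells and 0.56 and 0.77 TPM in MFP (log2 difference from MFP 3.36 ± 0.87 (SE), adjusted p 0.0104, limma). In BM CD44low cells *Ring1* had 0.30 and 15.5 TPM, so the replicates disagree there. *Cbx2* lay between 16.9 and 43.7 TPM in all LN and BM cells, at 5.18 and 4.24 TPM in MFP and 0.81 to 2.49 TPM in the 4 lung libraries (lung against LN and BM -3.48 ± 0.29 (SE), adjusted p 5.03e-06, limma). *Cbx7* had 10.0 and 13.6 TPM in lung CD44low cells, 3.16 and 1.19 TPM in lung CD44high cells and 0.43 to 1.99 TPM elsewhere (log2 difference from MFP 2.83 ± 0.36 (SE), adjusted p 0.00015, limma). The gene lower than MFP in lung CD44low cells was *Phc2*, named after its values were seen. *Ring1* codes for a Polycomb ubiquitin ligase subunit and the *Cbx* genes for its chromodomain partners.

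Of 14 genes of retinoic acid synthesis, breakdown and reception, 9 were tested. Against MFP, 2 were higher in lung CD44low cells and none was lower, with a median log2 difference of 1.44, against 11.2% higher, 7.62% lower and a median of 0 over all genes. *Aldh1a1*, which makes retinoic acid, had 610 and 601 TPM in lung CD44low cells, 1.99 and 20.9 TPM in lung CD44high cells and at most 6.25 TPM in the other 10 libraries (log2 difference from MFP 9.03 ± 0.74 (SE), adjusted p 6.68e-06, limma). *Cyp26b1*, which breaks it down, had 39.8 and 67.0 TPM in lung CD44low cells, 1.41 and 1.66 TPM in lung CD44high cells and was listed at 0 in MFP (adjusted p 1.82e-05, limma). Both were lower in lung CD44high than in lung CD44low cells (adjusted p 0.000153 for *Aldh1a1* and 0.000191 for *Cyp26b1*, limma). *Aldh1a3*, which also makes retinoic acid, was lower in lung than in LN and BM cells (at most 0.24 against 2.57 to 5.89 TPM, adjusted p 3.64e-06, limma). None of the 8 *ParaHox*, *Cdx* and *Evx* genes, relatives of the Hox genes, passed the filter on low values.

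The single-cell libraries gave a separate reading of 3 of these groups, with 1 deposited table per group and hence no test. Per the study's methods each of these samples had 2 replicates, and whether a table pools both is not stated, so each is treated as 1 library. Counts of the kept cells were summed per library. The 95% exact Poisson intervals cover counting error only and treat counts as independent. Counts of a gene can share a cell, such as 110 of *Hoxa5* in 60 lung CD44low cells, so the intervals may be too narrow. Hox genes took 2.125 of every 10000 counts in lung CD44low cells (1.94 to 2.33, from 472 counts in 348 cells), 0.321 in lung CD44high cells (0.251 to 0.405, from 71 counts in 1236 cells) and 0.361 in LN CD44high cells (0.312 to 0.416, from 191 counts in 2562 cells). Of the 39 genes, 17 had a count in lung CD44low, 7 in lung CD44high and 13 in LN CD44high cells.

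In lung CD44low cells *Hoxa5* led with 0.495 per 10000 (0.407 to 0.597), ahead of *Hoxb2* at 0.311 (0.242 to 0.393), *Hoxa7* at 0.257 (0.194 to 0.333), *Hoxb6* at 0.221 (0.163 to 0.292), *Hoxb5* at 0.189 (0.136 to 0.256) and *Hoxb7* at 0.167 (0.117 to 0.230). The intervals of *Hoxb2* to *Hoxb5* in this list overlap, so their order is not resolved. That of *Hoxb7* lies below that of *Hoxb2* but overlaps those of *Hoxa7*, *Hoxb6* and *Hoxb5*. The gap between *Hoxa5* and *Hoxb2* is narrow (0.407 against 0.393), so the lead of *Hoxa5* is uncertain if the intervals are too narrow. *Hoxb2* and *Hoxb7* had 0 counts in both other libraries, with upper bounds of 0.0167 per 10000 in lung CD44high and 0.007 in LN CD44high cells. In LN CD44high cells *Hoxa5* had 0.144 (0.113 to 0.180), *Hoxc9* 0.0965 (0.0718 to 0.127) and *Hoxa10* 0.0322 per 10000 (0.0187 to 0.0515). In lung CD44high cells *Hoxc9* gave 44 of the 71 Hox counts, 0.199 per 10000 (0.145 to 0.267), and it had 0 counts in lung CD44low cells. *Hoxb8*, at 5.6 and 7.9 TPM in bulk lung CD44low cells, had no count in any of the 3 libraries. The 9 *Hoxd* genes had none either, whereas *Hoxb1*, listed at 0 in all bulk libraries, had 3 counts in lung CD44low, 3 in lung CD44high and 6 in LN CD44high cells. *Hoxc8* had 7 counts in lung CD44low and 8 in lung CD44high cells, and *Hoxc13* had 1 and 5. Fibroblast and mesenchymal markers took 28.98 per 10000 counts in lung CD44low, 3.26 in lung CD44high and 1.51 in LN CD44high cells. Epithelial markers took 1.77, 4.58 and 11.3, and *Epcam* had 0 counts in lung CD44low cells. Of the 14 fibroblast and mesenchymal markers, 12 had a count in lung CD44low cells, and *Lum* and *Fap* had none. In bulk, *Lum* was called higher in lung CD44low cells than in MFP (adjusted p 6.74e-09, limma), so the 2 readings differ for it. Cycling markers took 3.35 per 10000 counts in lung CD44low, 9.72 in lung CD44high and 12.89 in LN CD44high cells. They were thus not low in lung CD44high cells here, unlike in the bulk libraries. The part of these markers in the Hox levels was not tested.

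**Figure D5:**
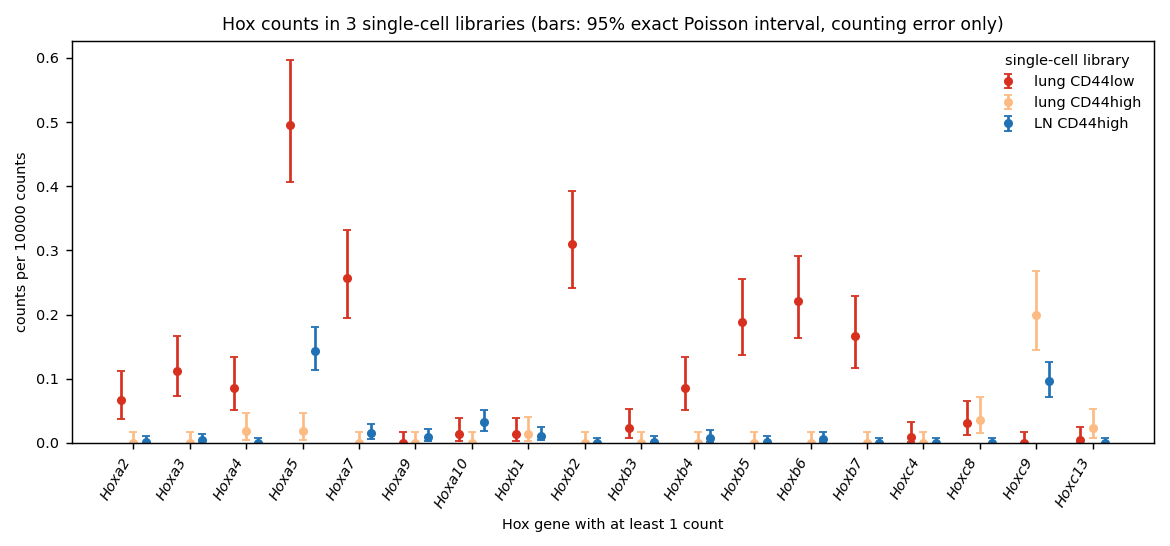
Counts per 10000 counts of Hox genes with at least 1 count in the 3 single-cell libraries, with 95% exact Poisson intervals as bars. *Hoxa5*, *Hoxb2*, *Hoxa7*, *Hoxb6*, *Hoxb5* and *Hoxb7* are highest in lung CD44low cells, and *Hoxc9* is seen in lung CD44high and LN CD44high cells with 0 counts in lung CD44low cells.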

How the data were processed

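Cells were sequenced after a modified SMART-seq2 protocol with Nextera XT, which does not mark strand, to a stated minimum of 10 M reads. Bulk reads were mapped by the authors to mm10 (STAR) and summarised per gene of GENCODE v21 (RSEM). The deposited TPM values keep no read counts, so the depth of each library is unknown. For single cells (ddSeq, SureCell), the authors used kallisto, and the deposited counts are whole numbers for each gene and barcode, before any filter. Barcodes with more than 250 genes and under 10% mitochondrial counts were kept, and doublets were not called. Barcodes are listed as serial numbers, so those shared between libraries could not be counted. Whether unique molecular identifiers were collapsed is not given in the sources used here.

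The 15348 of 55450 genes that reached 1 TPM in 2 or more libraries were fitted as log2(TPM + 1) with limma 3.58.1 in R 4.3.3 (7 group means, 7 residual degrees of freedom, trend=TRUE) in 12 comparisons. A pseudocount of 1 understates changes of low genes. No fold change is given against a group listed at 0. The procedure was tested on simulated data with known shifts. Gene models were those of GENCODE vM21. Python 3.11.15, numpy 2.4.6, pandas 2.3.3, scipy 1.17.1, biopython 1.88 and matplotlib 3.10.9 were used.

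The rule was to name every Hox gene that passed the filter, but some results on single genes and sequences are not reported here. From the other lists, genes called in at least 1 comparison are named, up to 4 of each list with the largest differences. Members, gene lists and markers were chosen with earlier results of these data known. Alternatives were no filter or a filter of 5 TPM, a pseudocount of 0.1, median-ratio scaling, the replicate number as a block, only the groups compared, the unadjusted p, and each library left out in turn. A crossed block and a fit without both lung CD44low libraries were added after seeing the data.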

Additional observations from a re-analysis of the deposited data

Results flagged for a closer look

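For 10 Hox genes the difference between CD44high and CD44low cells in lung was not the same as the mean of that difference in LN and BM, by a test of the difference itself (limma, all adjusted p under the threshold of 0.05). The values, in log2(TPM + 1), are the lung difference minus the mean of LN and BM, with a negative sign where CD44high cells were relatively lower in lung. They were -5.30 for *Hoxb6*, -5.29 for *Hoxb5*, -4.66 for *Hoxa7*, -4.45 for *Hoxb2*, -4.40 for *Hoxb7*, -4.08 for *Hoxa5*, -3.59 for *Hoxa3*, -2.94 for *Hoxb8*, -2.29 for *Hoxb4* and 2.22 for *Hoxc9*. Those of *Hoxb2*, *Hoxb5*, *Hoxb6*, *Hoxb7*, *Hoxb4* and *Hoxb8* involve a lung CD44high group listed at 0, and that of *Hoxc9* a lung CD44low group listed at 0, and that of *Hoxa3* a lung CD44high group at 0.05 and 0 TPM, so they depend on the pseudocount and are no fold changes. Within LN and BM none of the 10 genes was called between CD44 states. The difference of *Hoxc9* was 1.52 in lung, -0.69 in LN and -0.70 in BM, on the same scale, and the BM value is -0.14 without the second BM CD44low library, where the 2.22 becomes 1.94.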

How the results depend on the processing

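The 40 called differences of single Hox genes were recomputed under each alternative that could be fitted to them. Of the 804 values this gave, 560 left out 1 library, whether or not it belonged to the groups compared. Leaving out a library of another group cannot move the difference, only its spread. Many values were thus bound to stay, and the totals are no measure of how firm the calls are. Of the 804, 793 kept their direction and their call, 7 lost the call and 4 changed sign. Counts are of Hox genes called at a log2 difference over 2. The pseudocount of 0.1 gave 3 genes for LN CD44low, 4 for LN CD44high, 5 for BM CD44low, 5 for BM CD44high and 1 for lung CD44high cells against MFP, 16 for the CD44 states in lung and 10 for lung against LN and BM. Calls over all genes rose with it too, those higher than MFP from 318 to 736 in LN CD44low, 375 to 857 in LN CD44high, 612 to 1284 in BM CD44low, 558 to 1166 in BM CD44high and 832 to 1398 in lung CD44high cells, those lower in CD44high lung cells from 1350 to 1911, and those higher in lung than in LN and BM from 1095 to 1957. *Hoxa2* lost its call against MFP and between CD44 states in lung under median-ratio scaling, at 1.90 and -1.90 (set by the added 1 against groups listed at 0, and no fold changes), and *Hoxc9* lost its call in the test of the CD44 difference in lung, at 1.99. Median-ratio scaling moved the median over all genes against MFP from -0.30 to 0.03 in LN CD44high and from -0.34 to 0.05 in BM CD44high cells. With lung CD44high cells alone as lung, *Hoxa10* kept its call against LN and BM. The 5 other differences were -0.053 for *Hoxa7*, -0.014 for *Hoxb2*, -0.133 for *Hoxb5*, -0.165 for *Hoxb6* and 0 for *Hoxb7*, since the libraries left out are those in which these genes are high.

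With each library left out in turn, counts ranged from 1 to 2 for LN CD44low, 1 to 2 for BM CD44low and 9 to 10 for lung CD44low cells against MFP, 9 to 10 for CD44 in lung, and 9 to 11 for the CD44 difference in lung against LN and BM. The count of 2 came without LN CD44low replicate 1 and without BM CD44low replicate 1, where calls over all genes higher than MFP rose from 318 to 408 and from 612 to 1257. Where that leaves 1 library in a group, its spread is taken from the other groups. Same-numbered libraries of different groups did not deviate together (correlations of -0.194 to 0.168), so the numbers were not read as pairs. This does not exclude shared mice, since the numbers need not follow the mouse. The replicate block gave 1 for each LN and BM group, 10 for lung CD44low and 0 for lung CD44high cells against MFP, 10 for CD44 in lung and 6 for lung against LN and BM, and changed no count of calls. The crossed block, tried because the lung pair had the lowest correlation, gave 10 for CD44 in lung.

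The number of genes above a level in both libraries depends on that level. At 0.5 TPM it was 2 for MFP, 5 for BM CD44low, 6 for BM CD44high and 3 for lung CD44high cells, and at 2 TPM it was 0, 1, 1 and 0 in the same groups and 2 for LN CD44high cells. With 1 library it was 3 to 5 for BM CD44low and 3 to 5 for BM CD44high cells, and with median-ratio scaling 5 for BM CD44high. The summed Hox level of each single-cell library stayed within its counting interval under each filter on cells. Levels of single genes were not recomputed under these filters. As TPM keeps no counts, the counting error of low values is unknown.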
